A study of Oryza sativa with 8 samples.

Results

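Roots were compared with leaves of rice seedlings (Oryza sativa, cultivar Nipponbare) that had received salt. The comparison used 4 of the 8 libraries of the series: root salt replicates 1 and 2 against leaf salt replicates 1 and 2, chosen by their titles and joined by gene identifier. Plants were 2 weeks old and had grown in liquid culture. The salt groups were collected 24 hours after 150 mmol NaCl, a dose the labels give without a volume, and root control and leaf control are the untreated plants collected with them. Each of the 4 groups has 2 libraries, which the labels call biological replicates. Titles were used for grouping because another field conflicts with them: under tissue, libraries titled root are entered as shoot and libraries titled leaf as seedling.

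Leaves fix carbon in chloroplasts, and their most abundant messenger RNAs are known to encode proteins of photosynthesis. Roots take up water and minerals and are the first organ to meet salt in a liquid medium. Sodium chloride is known to act on plants both by lowering the water potential around the root and by sodium entering the tissue. A comparison of both organs under salt separates what each organ expresses while under the same treatment.

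The genes below are given by identifier and position, and none is given a name or function. No symbol is paired with an identifier in the deposited tables, and a RefSeq table of rice genes (assembly ASM3414082v1) held 0 of the 55797. The tissue labels were therefore not checked against marker genes of root or leaf, and lists of genes by function were not used. Values are FPKM, fragments scaled by transcript length and by the mapped total. Tests ran on log2(FPKM + 1) over the 23776 genes that reached 1 FPKM in 2 libraries of the series, and a log2 difference is root minus leaf on this scale, which understates the difference of genes with low values. A gene is called where its adjusted p (limma, Benjamini-Hochberg over the 23776 genes) is under 0.05.

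The width of the deposited confidence bounds implies 9580000 and 10100000 fragments in the root salt libraries and 10700000 and 10600000 in the leaf salt libraries, if the bounds hold counting error alone. Spearman correlations over the tested genes were 0.976 between the root salt replicates and 0.983 between the leaf salt replicates, and 0.601 to 0.612 between a root and a leaf library. Replicates were at least 2-fold apart for 2.31% of genes in root salt and 1.33% in leaf salt, and for 3.89% in root control and 1.63% in leaf control, which share the estimate of the spread.

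Under salt, most of the transcriptome differed between root and leaf. Of the 23776 genes tested, 17165 were called (72.2%), of which 11346 were higher in root (47.7% of genes tested) and 5819 lower in root (24.5%). In each of these 17165 genes both libraries of the higher tissue lay above both of the other, as they also did over all tested genes for 56.6% on the root side and 29.9% on the leaf side. At 2-fold the root side was still the larger: 6203 genes were at least 2-fold higher in root (26.1%) and 3823 at least 2-fold lower (16.1%). At 8-fold, 1031 genes were higher (4.34%) and 1129 lower (4.75%), and at 64-fold, 90 genes were higher in root (0.379%) and 173 lower (0.728%). The order at 8-fold depended on the pseudocount: with 0.1 in place of 1 there were 2355 genes higher in root and 1974 lower, and with 5 there were 310 higher and 536 lower. Confidence bounds of the 2 tissues stood apart in all 4 libraries for 97.0% of the genes at least 8-fold higher in root. For those at least 8-fold lower the share was 99.2%. Among all called genes the shares were 82.9% on the root side and 84.0% on the leaf side. The lower bound was set as far below the FPKM as the deposited upper bound lay above it. The same 4 libraries chose these genes, so the shares are no separate support.

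The number of genes on each side depended on the scaling between libraries. The median log2 difference over all tested genes was 0.35 on the deposited scale, 0.17 after scaling each library to its 75th percentile and 0.10 after quantile normalization. Of the called genes 66.1% were higher in root on the deposited scale, 58.5% after 75th percentile scaling and 55.2% after quantile normalization. The genes called lower in root numbered 5819, 6764 and 7266 in the same order. Of the 11346 genes higher in root, 9528 and 8959 remained called on that side under the 2 scalings, and of the 5819 lower in root, 5819 and 5816 did. At the pseudocount of 1, genes at least 8-fold higher and lower in root numbered 894 and 1212 after 75th percentile scaling and 841 and 1253 after quantile normalization.

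**Figure D1:**
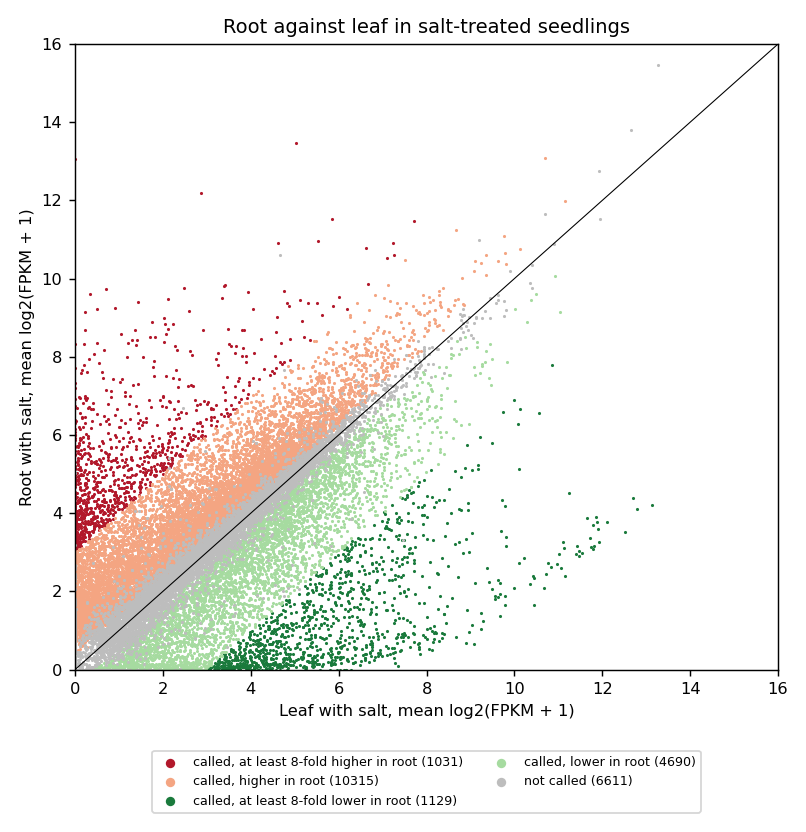
Each point is 1 of the 23776 tested genes, at its mean log2(FPKM + 1) over the 2 leaf salt libraries (horizontal axis) and the 2 root salt libraries (vertical axis), coloured by call and by a difference of at least 8-fold. The line marks equal levels. The points farthest to the right, above 10 on the leaf axis, include many that lie low on the root axis, while few of the points high on the root axis lie that low in leaf.

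Among genes with no library at 0, the largest differences on the root side were reached by genes under 10 FPKM in leaf. LOC_Os10g11500 (chromosome 10, 6370102 to 6370840) had 4568 and 4808 FPKM in the root salt libraries, against 8.76 and 4.48 FPKM in the leaf salt libraries. Its log2 difference was 9.32 ± 0.254 (SE, limma adjusted p = 4.44e-07). The gene stood as far apart without salt, at 4337 and 5100 FPKM in root control and 4.59 and 5.38 FPKM in leaf control, and the test of the change with salt gave a log2 value of -0.30 (limma adjusted p = 0.564).

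LOC_Os04g44060 (chromosome 4, 26099273 to 26101782) had 844 and 710 FPKM in root salt, against 0.179 and 0.365 FPKM in leaf salt. Root exceeded leaf by 9.25 ± 0.117 on the log2 scale (SE, limma adjusted p = 2.15e-07). In the untreated plants it had 98.9 and 93.9 FPKM in root and 0.337 and 0.334 FPKM in leaf. Here the tissue difference was wider with salt, by 3.07 ± 0.165 on the log2 scale (SE, limma adjusted p = 0.000215), and the root level rose while the leaf level was not called.

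On the leaf side the largest differences belonged to transcripts among the most abundant of the leaf. LOC_Os12g02320 (chromosome 12, 737406 to 737894) had 11.1 and 10 FPKM in root salt, against 5791 and 5939 FPKM in leaf salt. Its log2 difference was -8.99 ± 0.613 (SE, limma adjusted p = 1.62e-05). LOC_Os11g47970 (chromosome 11, 28934294 to 28936340) had 15.4 and 20 FPKM in root salt, against 8961 and 9046 FPKM in leaf salt. The log2 difference was -8.92 ± 0.747 (SE, limma adjusted p = 4.41e-05). The replicates of each salt group lay close together for both genes.

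Without salt these 2 genes had 47.7 and 9.59 FPKM (LOC_Os12g02320) and 68.6 and 9.80 FPKM (LOC_Os11g47970) in root control, and 2420 and 3021 FPKM and 4515 and 3830 FPKM in leaf control. The 2 root control libraries, which enter the shared estimate of the spread, lay far apart for both genes. Without root control replicate 1 the adjusted p under salt was 8.86e-07 for LOC_Os12g02320 and 9.10e-07 for LOC_Os11g47970, and without replicate 2 it was 8.64e-07 and 9.42e-07 (limma, with the lone root control library assumed to vary like the other groups). The change of the tissue difference with salt did not pass the test for either gene, at limma adjusted p = 0.110 for LOC_Os12g02320 and 0.268 for LOC_Os11g47970.

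**Figure D2:**
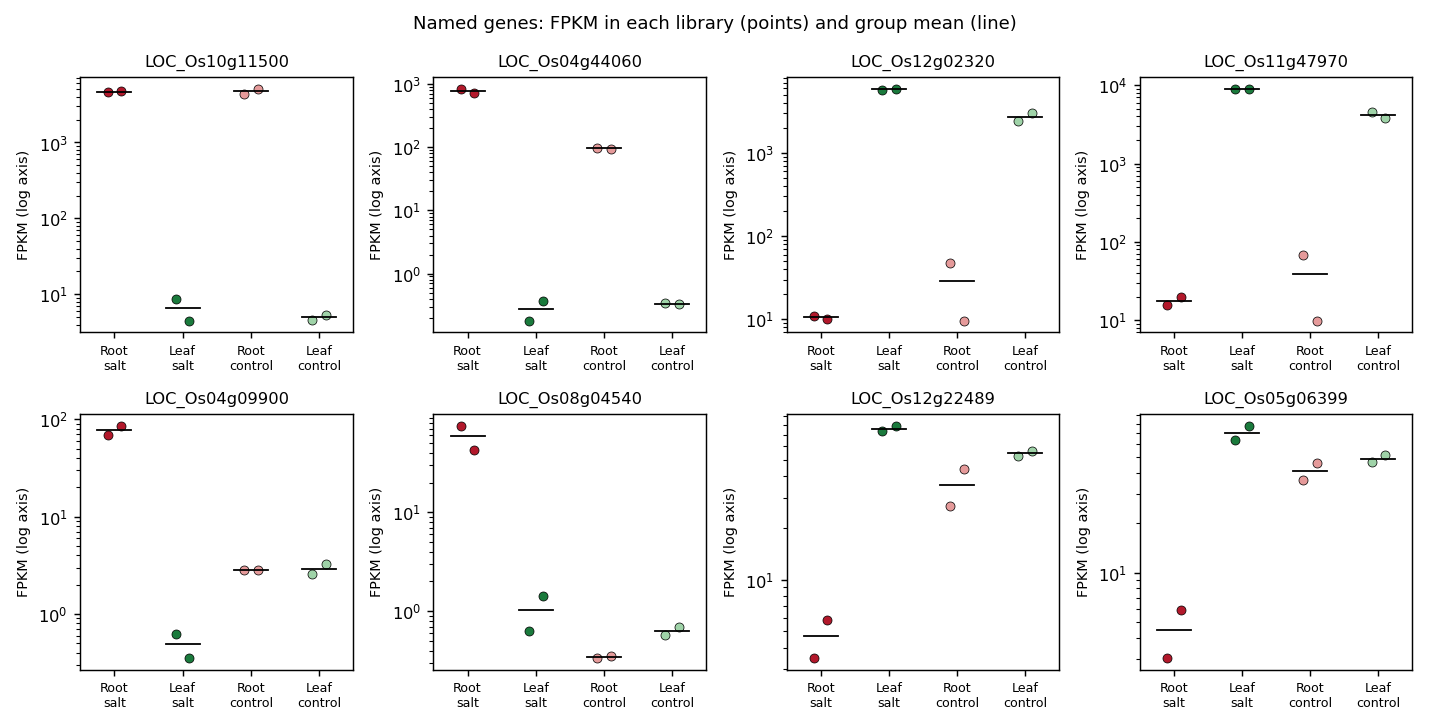
FPKM on a log axis in each library (points, replicate 1 left and replicate 2 right) and the mean of each group (line) for 8 genes. Genes with a library at 0 were passed over. The upper row holds the 2 largest remaining differences on each side under salt, and the lower row the 2 largest on each side among genes called under salt, not called without salt and with a change that passed the test. In the upper row root and leaf are far apart in both treatments, and in the lower row the salt groups are farther apart than the untreated ones.

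The abundant transcripts of the 2 organs differed in how far they were shared. In root salt, 36 genes had at least 1000 FPKM in both libraries, of which 25 were higher in root, 11 of them at least 8-fold and 4 at least 64-fold. In leaf salt, 59 genes reached that level, of which 47 were lower in root, 42 at least 8-fold and 37 at least 64-fold. Over all tested genes, 47.7% were higher in root and 24.5% lower. At 8-fold these shares were 4.34% and 4.75%, and at 64-fold 0.379% and 0.728%. The median level in the other tissue was 39.4% for the 36 abundant root genes and 0.341% for the 59 abundant leaf genes. Among the 100 genes with the highest mean in root salt, 77 were higher in root, 4 lower and 19 not called, with a median log2 difference of 1.53. Among the 100 highest in leaf salt, 7 were higher in root, 75 lower and 18 not called, with a median of -6.69, and 53 of them were at least 64-fold lower in root. The 2 lists shared 26 genes. These genes were ranked on the libraries that are compared, so the direction of the counts is partly set by the ranking.

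The 37 abundant leaf genes at least 64-fold lower in root had similar relative levels within each root library over their interquartile range. The 64-fold cut was made on the salt libraries, so it limits how high these levels can be in root salt. Set against their mean in leaf salt, their median level was 0.215% in root salt replicate 1 (interquartile range 0.190% to 0.284%) and 0.333% in root salt replicate 2 (0.277% to 0.396%). Set against leaf control, it was 1.22% in root control replicate 1 (1.01% to 1.35%) and 0.267% in root control replicate 2 (0.240% to 0.354%). Single genes lay from 1.33e-58% to 0.799% in root salt replicate 1 and from 0.171% to 1.02% in root salt replicate 2. In root control replicates 1 and 2 they reached 6.37% and 4.6%. Whether these traces are root transcripts or leaf RNA in the root libraries was not tested.

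The summed expression was more concentrated at the very top in root and less so further down. The single most abundant gene held 5.79% and 6.35% of the summed FPKM of tested genes in the root salt libraries, against 1.30% and 1.65% in the leaf salt libraries. The top 10 held 14.1% and 15.8% in root salt and 8.80% and 8.97% in leaf salt. At 100 genes the order was turned round, with 26.6% and 27.5% in root salt and 29.0% and 28.3% in leaf salt, and the tissues did not overlap at any of these ranks. Reaching 50% of summed FPKM took 854 and 844 genes in root salt and 664 and 704 genes in leaf salt. The untreated tissues were the other way round, with 523 and 422 genes in root control and 681 and 650 in leaf control.

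The top root gene, LOC_Os06g13680 (chromosome 6, 7591912 to 7593109), was singled out after its values were seen. It had 42851 and 47811 FPKM in root salt, against 8596 and 11456 FPKM in leaf salt, and was also the first or second most abundant gene of the leaf libraries. Its log2 difference of 2.19 ± 0.912 was not called (SE, limma adjusted p = 0.0657). The salt groups did not overlap, and the untreated libraries, which share the estimate of the spread, had 74744 and 100675 FPKM in root and 9927 and 18981 FPKM in leaf.

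**Figure D3:**
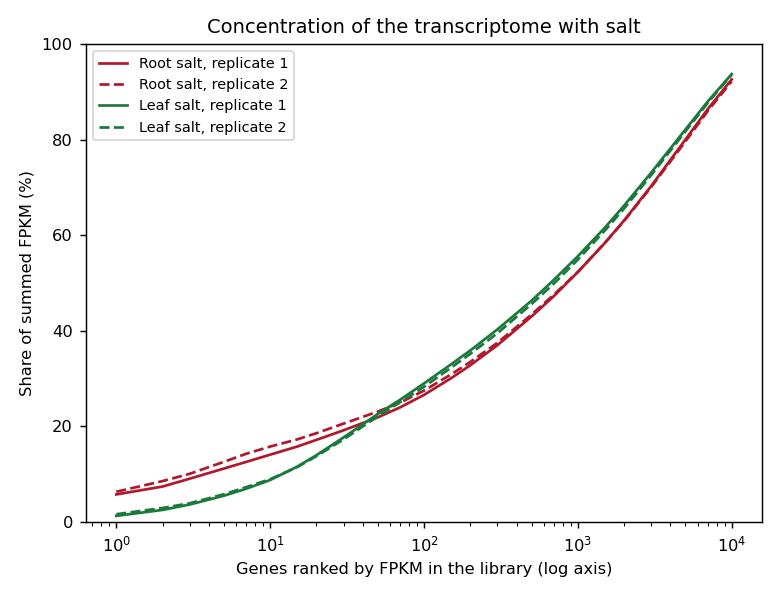
Share of summed FPKM (vertical axis, %) held by the most abundant tested genes of a library, against their number (log axis), for the 2 root salt and 2 leaf salt libraries. The root curves start higher, at 5.79% and 6.35% for the first gene, and lie below the leaf curves from 70 genes on.

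The share of genes called differed between levels. Among 9632 genes whose higher tissue averaged from 1 to below 10 FPKM, 66.4% were called, and 0.841% were at least 8-fold higher and 0.664% at least 8-fold lower in root. Among 1551 genes from 100 to below 1000 FPKM, 88.5% were called, 11.4% at least 8-fold higher and 18.6% at least 8-fold lower. Of the 88 genes at 1000 FPKM or more, 12.5% were at least 8-fold higher and 50% at least 8-fold lower. The pseudocount of 1 lowers the fold of genes with low values, so the shares at 8-fold are not comparable between levels.

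Some genes were listed at 0 FPKM in both libraries of a tissue while both libraries of the other had at least 5 FPKM. In leaf salt 170 genes were listed at 0, with a median of 13.3 FPKM in root salt. In root salt 65 genes were listed at 0, with a median of 10.8 FPKM in leaf salt. Of the 170 genes, 101 were also at 0 in both leaf control libraries, and 150 had at least 1 FPKM in both root control libraries. Of the 65, 22 were also at 0 in both root control libraries and 56 had at least 1 FPKM in both leaf control libraries. An FPKM of 0 gives no fold. With only 1 library asked to be at 0 the counts were larger: 256 at 0 in leaf without leaf salt replicate 1, and 131 and 153 at 0 in root without root salt replicate 1 and replicate 2. Without leaf salt replicate 1, 100 genes were at 0 in root, since only 1 leaf library then had to reach 5 FPKM.

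Most of the strong tissue differences under salt were also present without it. Root control against leaf control, which shares no library with the salt comparison but shares the estimate of the spread, gave 16021 called genes (67.4%), 9299 higher (39.1%) and 6722 lower (28.3%) in root. At 8-fold it gave 3.16% of tested genes higher and 5.39% lower, and at 64-fold 0.341% higher and 0.597% lower. Of the 1129 genes at least 8-fold lower in root under salt, 1116 were called lower without salt and 930 were at least 8-fold lower there too. Of the 1031 genes at least 8-fold higher under salt, 946 were called higher without salt, 556 by at least 8-fold, while 78 were not called and 7 were called lower. Their median log2 differences with and without salt were -4.14 and -4.13 on the leaf side and 3.83 and 3.17 on the root side.

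Salt changed the tissue difference itself in 7805 genes (32.8%), by the interaction of tissue and treatment. The difference became more positive in 5496 genes (23.1%) and more negative in 2309 (9.71%). Without leaf salt replicate 2 the count of more negative differences was 1504, and after quantile normalization the counts were 3619 and 3852. This test uses the same 4 salt libraries as the tissue comparison, so the counts that follow are not independent of it. On the root side 7699 genes were called both with and without salt, and of these 1611 were wider apart with salt and 676 less far apart. On the leaf side 4860 were called in both, 548 of them wider apart with salt and 997 less far apart. Under quantile normalization the first pair was 1003 and 896 and the second 804 and 833, so that the balance between widening and narrowing within a side depended on the scaling.

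A further 3133 genes were called higher in root with salt and not called without, and for 1626 of them the change passed the test. Over all tested genes, 29.1% rose and 14.4% fell with salt in root, and 14.8% rose and 18.9% fell in leaf. Of the 1626 genes, 1266 rose with salt in root and 541 fell in leaf, with median log2 salt changes of 0.75 in root and -0.30 in leaf. On the leaf side 784 genes were called with salt and not without, 354 of them with a change that passed the test. Of these 354, 218 rose with salt in leaf and 148 fell in root, with median changes of 0.69 in leaf and -0.31 in root. The tested change is the salt change in root minus that in leaf. Choosing the 1626 and 354 genes by it favours these directions, so their rises and falls are no separate result. The counts of 1626 and 354 depended on the scaling and on single libraries. They were 1117 and 566 after 75th percentile scaling and 949 and 702 after quantile normalization. Without leaf salt replicate 1 they were 1075 and 220, and without leaf salt replicate 2 the leaf-side count was 214.

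Other genes lost or turned their tissue difference. Without salt 1425 genes were higher in root and not called with salt, 547 of them with a change that passed the test, and 1348 were lower in root and not called with salt, 732 of them with such a change. The direction turned from the leaf side to the root side in 514 genes, of which 421 rose in root and 292 fell in leaf with salt. It turned from the root side to the leaf side in 175 genes, of which 124 rose in leaf and 108 fell in root. Over all tested genes, 29.1% rose and 14.4% fell in root, and 14.8% rose and 18.9% fell in leaf. Choosing genes by a turn favours these directions, so the rises and falls are no separate result. After 75th percentile scaling, turns to the root and leaf side numbered 381 and 334. After quantile normalization they numbered 333 and 356, so the excess of turns towards root was gone there.

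**Figure D4:**
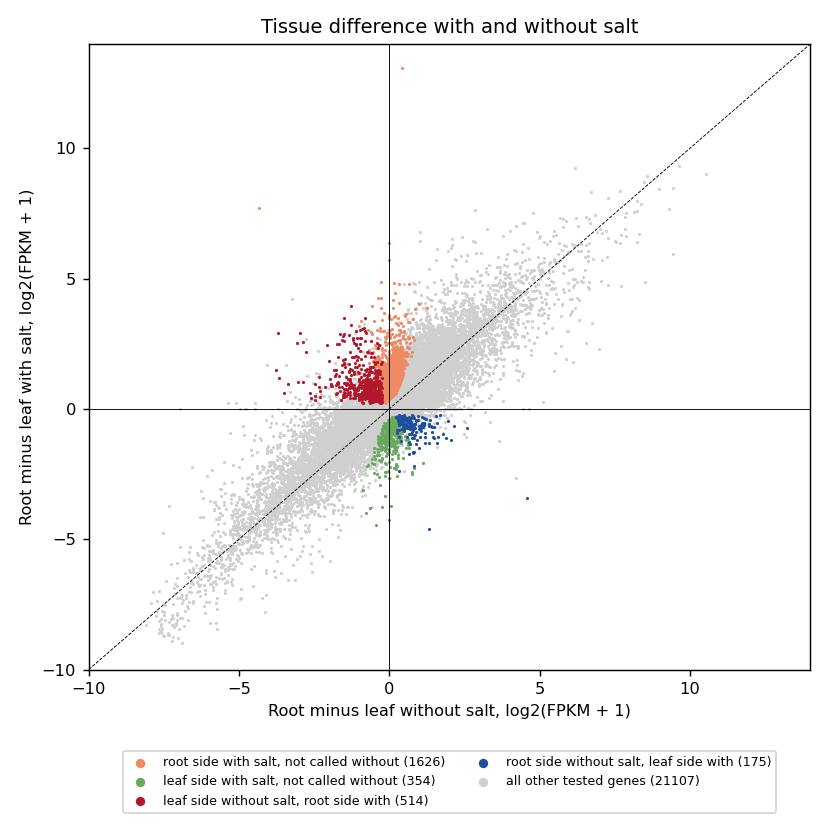
Log2 difference root minus leaf with salt (vertical axis) against the same without salt (horizontal axis) for the 23776 tested genes. Colours mark genes called with salt and not without (1626 on the root side, 354 on the leaf side) and genes called on opposite sides (514 and 175), all with a change that passed the test, and the dashed line marks equal differences. Most strong differences lie in the lower left and upper right, where both treatments place the gene on the same side.

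The genes considered next were called with salt and not without, with a change that passed the test and no library at 0. Among them the largest root-side difference was that of LOC_Os04g09900 (chromosome 4, 5318060 to 5326427). It had 69.1 and 85.0 FPKM in root salt, against 0.625 and 0.352 FPKM in leaf salt. The log2 difference was 5.71 ± 0.162 (SE, limma adjusted p = 4.79e-07). In the untreated tissues it had 2.80 and 2.82 FPKM in root and 2.55 and 3.25 FPKM in leaf. With salt it thus rose in root and fell in leaf, by 4.35 and -1.39 on the log2 scale.

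LOC_Os08g04540 (chromosome 8, 2256007 to 2257920) had 74.5 and 42.5 FPKM in root salt, against 0.630 and 1.42 FPKM in leaf salt. The log2 difference was 4.85 ± 0.290 (SE, limma adjusted p = 8.61e-06). It was under 1 FPKM in all 4 untreated libraries, at 0.336 and 0.353 in root and 0.573 and 0.70 in leaf. Its separation came with a rise in root, while the leaf level was not called (limma adjusted p = 0.511).

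On the leaf side both genes separated through a fall in root. LOC_Os12g22489 (chromosome 12, 12691105 to 12695287) had 3.48 and 5.84 FPKM in root salt, against 73.6 and 78.7 FPKM in leaf salt. The log2 difference was -3.80 ± 0.262 (SE, limma adjusted p = 1.70e-05). Root control had 26.9 and 44.0 FPKM and leaf control 53.0 and 56.1, a log2 difference of -0.65 that was not called (limma adjusted p = 0.0638). LOC_Os05g06399 (chromosome 5, 3283678 to 3287823) had 3.02 and 5.90 FPKM in root salt, against 64.1 and 77.5 FPKM in leaf salt. The log2 difference was -3.76 ± 0.255 (SE, limma adjusted p = 1.57e-05). Root control had 36.6 and 46.3 FPKM and leaf control 46.8 and 51.6, a log2 difference of -0.25 that was not called (limma adjusted p = 0.415). The root levels fell by 2.68 and 3.0 on the log2 scale, and neither leaf change was called.

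Part of the genes that separated the tissues by at least 8-fold lay next to each other. Of the 1031 genes at least 8-fold higher in root, 24.3% had a neighbouring tested gene that was also at least 8-fold higher, while 8.23% of all tested genes lay next to such a gene. Of the 1129 genes at least 8-fold lower in root, 19.8% had such a neighbour, and 9.13% of all tested genes lay next to one. Neighbouring pairs numbered 150 on the root side and 123 on the leaf side, and 62 pairs had their genes on opposite sides. Across the 12 chromosomes, 3.18% to 5.16% of tested genes were at least 8-fold higher in root and 3.63% to 5.43% at least 8-fold lower. Both shares were lowest on chromosome 9, and differences between chromosomes were not tested. The loci of the strongly different genes were shorter, at a median of 1730 bases on the root side and 2281 on the leaf side, against 3157 over all tested genes.

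Runs of 3 or more genes at least 8-fold apart, consecutive among the tested genes, numbered 27 on the root side, with 103 genes, and 20 on the leaf side, with 63 genes. With untested genes counted as neighbours too there were 13 and 14. The longest held 12 of the 29 loci between its ends on chromosome 7 (1319031 to 1445070), with log2 differences of 4.16 to 7.28. The median over these 12 genes was 213 and 262 FPKM in root salt, against 1.78 and 2.38 FPKM in leaf salt. All 12 were also called higher in root without salt, and 11 were wider apart with salt. The difference was more positive with salt in 438 of the 1031 genes at least 8-fold higher in root, and in 23.1% of all tested genes. Choosing genes by a large difference under salt favours such a change. With salt 6 of the 12 rose and 3 fell in root, where 29.1% and 14.4% of all tested genes did, and 9 of the 12 fell in leaf, where 18.9% did. Of the 12 loci 2 overlap another locus, so their FPKM are uncertain.

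The next longest run held 8 genes on chromosome 8 (5228822 to 5265389), with log2 differences of 3.67 to 7.62 and medians of 169 and 139 FPKM in root salt, against 0.243 and 0.437 FPKM in leaf salt. All 8 were called higher in root without salt as well, and 7 were wider apart with salt, where 7 rose in root (29.1% of all tested genes) and 5 fell in leaf (18.9%). On chromosome 5 (2027782 to 2075376) 5 genes were 3.90 to 6.09 higher in root on the log2 scale, with medians of 25.9 and 24.6 FPKM in root salt and 0.0607 and 0 FPKM in leaf salt. LOC_Os04g09900 opened a run of 4 genes on chromosome 4 (5318060 to 5387215), which had means of 31.6 to 78.7 FPKM in root salt and 0.146 to 0.557 FPKM in leaf salt. All 4 genes of this run were wider apart with salt, and 2 of them were called higher in root without it. Beside these counts, 438 of the 1031 genes at least 8-fold higher in root had a more positive difference with salt.

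The longest run on the leaf side held 5 genes on chromosome 10 (2999296 to 3032720), with log2 differences of -6.10 to -3.30. Their medians were 0.405 and 0.679 FPKM in root salt, against 93.8 and 99.3 FPKM in leaf salt. With salt 4 of the 5 fell in root (14.4% of all tested genes) and all 5 fell in leaf (18.9%). LOC_Os12g02320 lay in a run of 4 genes on chromosome 12 (732978 to 762534), with means of 0.231 to 10.5 FPKM in root salt and 153 to 5865 FPKM in leaf salt and log2 differences of -8.99 to -6.97. All 63 genes of the leaf-side runs were called lower in root without salt too, and 97 of the 103 genes of the root-side runs (94.2%) were called higher there. These shares are near the 98.8% and 91.8% of all genes at least 8-fold lower and higher in root. Sequence likeness within runs was not looked at, and reads shared between near-identical copies would make their FPKM uncertain. The number of runs depended on the pseudocount: with 0.1 in place of 1 there were 96 on the root side and 73 on the leaf side, and with 5 there were 5 and 6.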

How the data were processed

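The authors deposited FPKM per gene and library, with confidence bounds. The submitters' processing notes name Cufflinks 2.2.1, Cuffdiff and TopHat2 2.0.13. Build, annotation and strandedness: not given in the sources used here. Overlapping genes and near-identical copies are therefore uncertain. Of the entries on 12 chromosomes, 9 belonging to repeated identifiers were left out. In 3 libraries, root salt replicate 1 and leaf salt replicate 2 among them, the files list 185 further entries elsewhere. The files thus hold 2 entry lists, and whether their annotation differed is not given. Starts are printed with 1 added.

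limma 3.58.1 in R 4.3.3 fitted 4 group means to log2(FPKM + 1) of all 8 libraries, with a variance trend and no further scaling, and the scripts were tested on simulated data. Named genes are the 2 largest differences on each side among called genes with libraries that do not overlap, 5 FPKM or more on average in the higher tissue and no library at 0, first under salt, then among genes called under salt, not called without, and with a called change. The comparison, genes and lists were chosen with earlier results of these data known. Fragments were implied as the square of 2 × FPKM over the distance to the upper bound. Depth is otherwise unknown, and p-values measure the spread between the replicates as labelled.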

Additional observations from a re-analysis of the deposited data

Results flagged for a closer look

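Tissue differences that salt changed, by limma's test of the interaction, are listed here. The difference root minus leaf was more positive with salt for 5496 genes and more negative for 2309, and 514 genes were lower in root without salt and higher with it, while 175 were the reverse. After quantile normalization the first pair of counts was 3619 and 3852 and the second 333 and 356, so neither excess towards root remained. Among the named genes the change of the log2 difference was 3.07 for LOC_Os04g44060, 5.74 for LOC_Os04g09900, 5.13 for LOC_Os08g04540, -3.15 for LOC_Os12g22489 and -3.51 for LOC_Os05g06399 (limma adjusted p = 0.000215, 0.000111, 0.000581, 0.00172 and 0.00115). For LOC_Os06g08320, described among the other observations, the change passed the same test (limma adjusted p = 0.000111), and no size is given because it was listed at 0 in both leaf salt libraries.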

How the results depend on the processing

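Each of the 8 named genes was refitted in a single contrast. This was the tissue difference under salt, or its change with salt for the genes chosen by that change. All 8 kept direction and call there under every alternative run of that contrast. Whether the genes chosen by the change stayed called under salt and not called without it was not rerun. The counts of genes higher and lower in root, with and without salt, stayed within 1.5 times of those reported. Counts at 8-fold under salt were 2355 higher and 1974 lower with a pseudocount of 0.1, and 310 and 536 with 5, so that the larger side was root at 0.1 and leaf at 1 and 5. Runs of 3 or more genes on the root side numbered 96 and 5 at these pseudocounts, 463 at 2-fold and 13 with all genes as neighbours. On the leaf side they numbered 73, 6 and 176, and 32 with a filter of 5 FPKM. After quantile normalization 3619 genes had a more positive and 3852 a more negative difference with salt. Genes called with salt and not without, with a change that passed the test, numbered 949 on the root side after quantile normalization. On the leaf side they numbered 566 and 702 after 75th percentile scaling and quantile normalization. Genes turning to the leaf side numbered 334 and 356 under these scalings, and those turning to the root side 333 after quantile normalization. Genes listed at 0 numbered 462 in leaf and 272 in root when 1 FPKM was asked of the other tissue, and 43 and 13 when 20 was. The causes were not tested.

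With each library left out in turn, genes called with salt and not without ranged from 1075 to 1685 on the root side and from 214 to 327 on the leaf side, and genes with a more negative difference from 1504 to 2153 (lowest without leaf salt replicate 2). Genes at 0 ranged from 221 to 256 in leaf and from 89 to 153 in root. A replicate block gave 11337 genes higher and 5832 lower in root under salt, and changed no call of a named gene in its refitted contrast. The deviations of same-numbered libraries had a correlation of -0.0176 between root salt and leaf salt, 0.213 between root salt and root control, and -0.0210 to 0.0698 for the other pairs of groups, and with 2 pairs per comparison the numbers are not shown to pair the samples. For the change of the tissue difference the block gave 5264 more positive and 2220 more negative. Alternatives chosen after seeing the data (the entry list as a term, overlapping loci left out, values under 1e-6 counted as 0, genes present in the controls left out) kept the counts within 1.5 times. Of the genes at least 8-fold apart, all 1031 and 1129 had the same side within each entry list. The same 4 libraries made the calls, and called genes did not overlap between the tissues, so this outcome was fixed beforehand.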

Other observations

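The largest log2 difference of all tested genes under salt was fitted for LOC_Os06g08320 (chromosome 6, 4033795 to 4034043), a locus of 249 bases singled out after its values were seen. It had 6312 and 11600 FPKM in root salt and was listed at 0 in both leaf salt libraries, against 4388 and 2631 FPKM in root control and 2558 and 2572 FPKM in leaf control. No fold is given for a tissue at 0. Genes at 0 in both leaf salt libraries and at 20 FPKM or more in both leaf control libraries numbered 7, and the same in root numbered 2. Whether such a 0 is a level or an estimate that failed was not tested.

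Values just above 0 also occur: 67 genes had a value above 0 and under 1e-6 FPKM in a root salt library, and 9 in a leaf salt library.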
